A study of Mus musculus with 4 samples.

Results

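The genes described here are 34 members of the unfolded protein response, the integrated stress response and the heat shock response, followed across cultured astrocytes of 4 mouse brain regions. Members were taken by gene name: each probe set whose platform annotation named a single gene, by its current or former symbol, was assigned to that gene. This gave 73 probe sets for 33 of the 34 genes, out of 22690 probe sets and 12393 genes with a single-gene probe set. Hsp90ab1 had no such probe set and is not analysed here. All 33 genes read above the signal floor on 1 or more arrays and 31 on all 4, so no measured member was lost to the filter on low signals. They fall into 15 genes of the endoplasmic reticulum (ER), 9 genes of the ATF4 branch and 9 measured of 10 heat shock genes.

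The 4 primary cultures were named for the hippocampus, the olfactory bulb, the subventricular zone (a germinal layer lining the lateral ventricle) and the ventral mesencephalon (the lower midbrain) of CD-1 pups, an outbred stock, at postnatal day 3. All were grown in DMEM with 10% serum and shaken at 200 rpm before replating, and no group had a further agent or an altered allele. The series text gives 4 littermate pups in one sentence and pooled tissue of 3 pups in the next; which holds is not settled here. Each region was measured on 1 array, so there is no replicate spread, no test between regions was possible and no p-value is given.

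Cells fold secreted and membrane proteins in the ER with chaperones such as BiP (Hspa5), lectin chaperones and disulfide isomerases, and unfolded protein there activates the sensors IRE1, PERK and ATF6. IRE1 and ATF6 raise chaperone and degradation genes through ER stress elements in their promoters, while PERK and its sister kinases phosphorylate the translation factor eIF2 and so raise translation of Atf4, whose targets make amino acids, control redox state and can lead to cell death. The heat shock factors act on a separate set of cytosolic and mitochondrial chaperones. Astrocytes secrete large amounts of protein, and small heat shock proteins such as alpha B-crystallin are prominent in reactive astrocytes.

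Promoter sequences are shown first because factors of the 3 branches act through short promoter elements. The genes were not grouped by these elements, and many had no match. RefSeq promoter windows (mouse build GRCm38.p6, 250 bases before to 50 after the start) were found for 29 of the 34 genes, and 5 elements were searched on both strands. The ER stress element, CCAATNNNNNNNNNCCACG, was present in 39 of 32851 promoters (0.119%) and in 6 of the 14 ER genes with a promoter: Hspa5, Hsp90b1, Calr, Canx, Pdia6 and Dnajc3. Each stretch is printed 5′ to 3′ on the gene's strand, in lower case with the matches in capitals.
Hspa5, chr2:34772005-34772063 (+): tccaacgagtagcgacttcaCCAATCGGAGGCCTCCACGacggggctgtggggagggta
Hsp90b1, chr10:86705513-86705676 (-): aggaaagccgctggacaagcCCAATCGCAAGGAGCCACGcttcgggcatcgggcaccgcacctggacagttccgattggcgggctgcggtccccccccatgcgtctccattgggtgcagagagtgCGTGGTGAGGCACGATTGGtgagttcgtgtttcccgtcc
Calr, chr8:84847055-84847113 (-): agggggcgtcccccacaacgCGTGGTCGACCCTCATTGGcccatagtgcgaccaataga
Canx, chr11:50325780-50325838 (-): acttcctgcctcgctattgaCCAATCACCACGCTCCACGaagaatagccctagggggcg
Pdia6, chr12:17266471-17266529 (+): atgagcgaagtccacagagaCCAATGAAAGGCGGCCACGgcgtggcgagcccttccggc
Dnajc3, chr14:118937807-118937865 (+): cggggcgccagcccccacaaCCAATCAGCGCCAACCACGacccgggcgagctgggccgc

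The second form of the element, ATTGG and CCACG with 1 base between them, was present in 12 of all promoters (0.0365%) and in 2 ER genes, Herpud1 and Dnajb11. The UPR element TGACGTGG was in 222 promoters (0.676%) and in none of the 29 genes with a window. The CARE, TGATGNAA, which ATF4 binds with C/EBP partners, was in 1304 promoters (3.97%) and in 4 of 9 genes of the ATF4 branch (Trib3, Chac1, Asns and Nupr1), besides Herpud1. A heat shock element of 3 units, GAANNTTCNNGAA, was in 198 promoters (0.603%) and in 3 of the 6 heat shock genes with a promoter window. These were Hsph1 and the pair Hspd1 and Hspe1, which lie head to head on chromosome 1 and share the element, so it is printed once. In Trib3, Dnajb11 and Hsph1 the match lay after the start, within the 50 bases searched there, and is not printed. Herpud1 is shown because it carried an element of both ER and ATF4 type, Chac1, Asns and Nupr1 because they share the CARE and are described by region here, and Hspe1 for the element it shares with Hspd1.
Herpud1, chr8:94386297-94386407 (+): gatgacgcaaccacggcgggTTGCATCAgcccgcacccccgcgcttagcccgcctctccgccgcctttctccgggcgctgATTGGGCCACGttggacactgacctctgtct
Chac1, chr2:119351029-119351076 (+): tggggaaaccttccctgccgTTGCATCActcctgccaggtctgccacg
Asns, chr6:7693210-7693252 (-): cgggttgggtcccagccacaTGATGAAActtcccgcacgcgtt
Nupr1, chr7:126625553-126625600 (-): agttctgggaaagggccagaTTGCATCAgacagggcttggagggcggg
Hspe1, chr1:55088039-55088096 (+): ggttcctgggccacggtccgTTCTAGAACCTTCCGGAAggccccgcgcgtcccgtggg
Members were counted by gene, and the shares above are of promoters. By gene, the ER stress element was in 0.137% of all genes and its second form in 0.0444%. The UPR element was in 0.714%, the CARE in 4.51% and the heat shock element in 0.662%. A match is a description of these windows. Elements farther from the start and the binding of any factor were not examined.

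Signals are linear array units as deposited, and every comparison is of 1 gene between arrays, never of a gene with another. A floor of 122.1, the median over all probe sets and arrays, was applied before taking log2. Where the lower signal was at or under the floor, the fold is given as "at least". As a guide to measurement noise, 2 probe sets of the same RNA gave a difference between 2 arrays that scattered by 0.22 (median-based SD, log2), or 1.17-fold, over 1977 genes. This covers the measurement and not the spread between cultures.

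The labelled cell type was checked on marker genes. All 10 astrocyte markers were above the floor on at least 1 array, although S100b was under it in the first 2 cultures. Values are given throughout in the order subventricular zone, ventral mesencephalon, then olfactory bulb, then hippocampus. In this order the 10 astrocyte markers summed to 24591, 14649, 23098 and 35971. They did not share an order: Gfap, the astrocyte filament gene, read 3112, 1007, 3800.2 and 10027, the folate enzyme Aldh1l1 5106, 1711, 311 and 1727, and the gap junction gene Gja1 2505, 5988, 9010.4 and 5549.5. Of the 12 microglia and macrophage markers 10 lay below the floor on the first array, 12 on the second, 1 on the third and 0 on the fourth. Their summed signals were 516, 322.5, 30772 and 32639. Complement genes C1qa and C1qc were at 2.4 or less on the first 2 arrays. The 10 fibroblast and meningeal markers summed to 4977, 36189, 49759.7 and 21501. Of the 6 endothelial markers, only Cdh5 passed the floor. Neuron markers summed to 4316, 1454, 463.5 and 861.5, and ependyma and choroid plexus markers to 1224, 472.5, 270.9 and 12604. Of the 7 neuron markers only 3 passed the floor on any array, and Stmn2 was the largest part of each sum (3465, 1331, 218 and 514). Of the 6 ependyma and choroid plexus markers 4 passed, each highest in the hippocampus, where Ttr alone read 8960. Pericyte and smooth muscle markers summed to 19819, 20320, 18329.5 and 18353. Most of this was Acta2 (10977, 11576, 9878 and 9301) and Tagln (6331, 5710.5, 5224 and 5606). Oligodendrocyte lineage markers summed to 5695, 1934, 2148 and 6445, with Olig1 at 3805, 621, 171 and 2700. Markers of proliferating cells summed to 6182, 4817, 3666 and 6801. In bulk RNA, fewer cells of a type and less RNA per cell cannot be told apart.

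The ATF4 branch differed most between the regions. For 8 of its 9 genes, both the subventricular zone and the ventral mesencephalon read above both the olfactory bulb and the hippocampus. The same order of regions, at any distance, was seen for 17.0% of the 7987 genes above the floor. With a distance of at least 2-fold between the 2 sides it held for 5 of the 9 genes (Ddit3, Trib3, Chac1, Sesn2 and Ppp1r15a), and for 1.5% of all genes. This count was chosen after the values were seen. Between the highest and the lowest region 8 of the 9 were at least 2-fold apart, against 31.0% of all genes; without the hippocampus array the count was 5, against 24.2%.

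**Figure D1:**
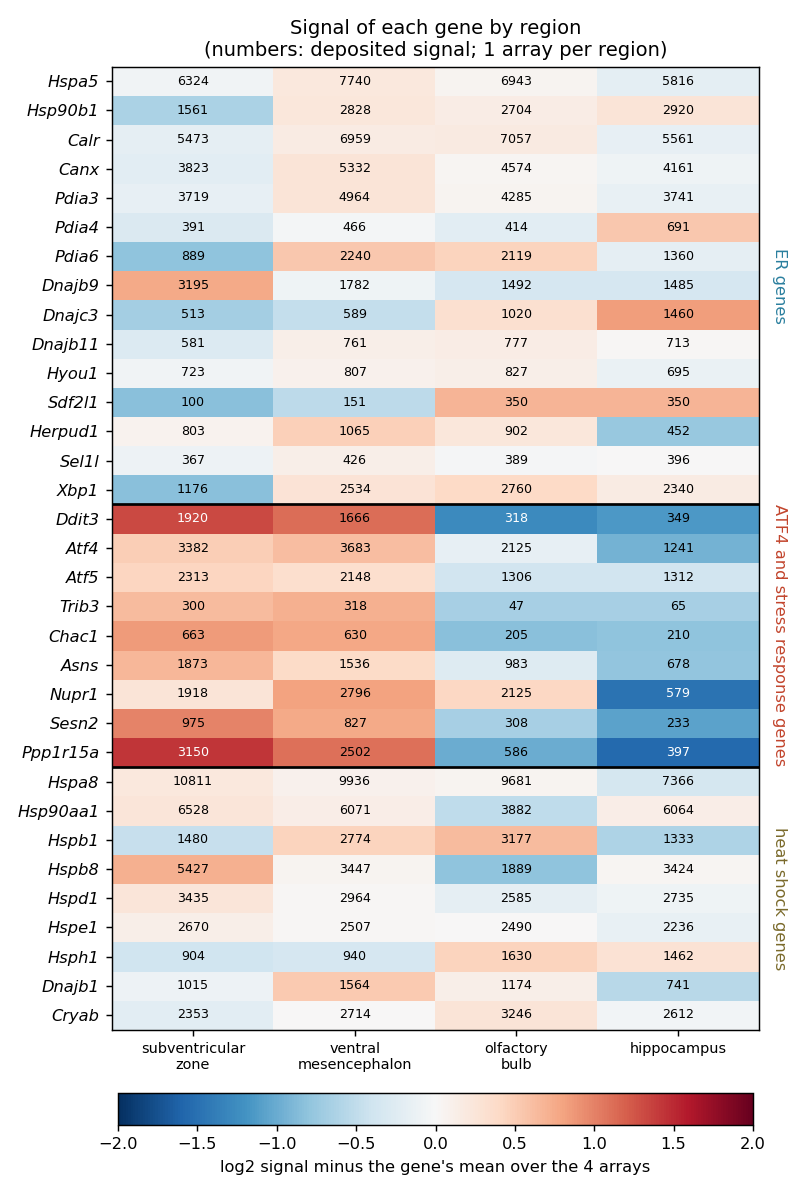
Signal of the 33 measured genes (rows) on the 4 arrays (columns); colour is log2 signal minus the gene's mean over the arrays, the number is the deposited signal, and black lines separate the 3 groups. The ATF4 branch is red in the first 2 columns and mostly blue in the last 2, with Nupr1 the exception in the olfactory bulb, while the ER and heat shock genes follow several patterns.

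Atf4 encodes the transcription factor of the branch, and its own RNA read 3382, 3683, 2125 and 1241. The hippocampus was lowest, 2.97-fold under the ventral mesencephalon. A second probe set read 981, 1467, 461 and 355, in the same direction and with a wider distance of 4.13-fold. The remaining probe set stayed below the floor throughout. Atf5, a related factor that is also controlled through eIF2, read 2313, 2148, 1306 and 1312 and was the only gene of the branch under 2-fold, at 1.77-fold.

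Ddit3 encodes CHOP, the factor tied to cell death under lasting stress. Its signals were 1919.7, 1666, 318 and 349. The lower of the first 2 cultures lay 4.78-fold above the higher of the last 2, by its single probe set. Ppp1r15a encodes GADD34, the phosphatase subunit that reverses eIF2 phosphorylation, and read 3149.9, 2502, 586 and 397. Its distance of 7.93-fold between subventricular zone and hippocampus was the largest of the 33 genes. The factor and the feedback subunit were high and low in the same cultures, and differed in which of bulb and hippocampus was lower.

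Trib3, a pseudokinase that restrains ATF4 and CHOP, read 299.8, 318, 46.7 and 65.2. The olfactory bulb and hippocampus were both below the floor, and the ventral mesencephalon was at least 2.61-fold higher. Its second probe set gave 247, 269, 61.5 and 64.9. Chac1, a glutathione-degrading enzyme, read 663, 629.5, 205 and 210.5. For this gene the first 2 cultures were within 1.05-fold of each other and the last 2 within 1.03-fold, with 2.99-fold between the nearest of the 2 sides. Sesn2, a leucine sensor that holds back mTORC1, read 975, 827, 308 and 233, and its other probe set 512, 462, 280.1 and 108.

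Asns, the asparagine synthetase, was more graded across the 4 cultures. It read 1873, 1536, 983 and 678, and 1344, 977, 594 and 426 by a second probe set. The distance from subventricular zone to hippocampus was 2.76-fold. Nupr1, a small stress-induced chromatin protein, departed from the branch. It read 1918, 2796, 2125 and 579, so that the olfactory bulb was not low and the hippocampus alone stood 3.31-fold under the next culture. Nupr1 was the only one of the 33 genes at least 2-fold away from all 3 other regions, beside 10.1% of all genes called in any region. By that rule 0.488% of all genes were lower in the hippocampus. With any 1 array left out, and so 2 other regions to pass, 8 to 10 of the 33 genes were called, beside 14.7% to 16.4% of all genes. Its second probe set gave the same picture (1582, 2082, 1802 and 436).

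**Figure D2:**
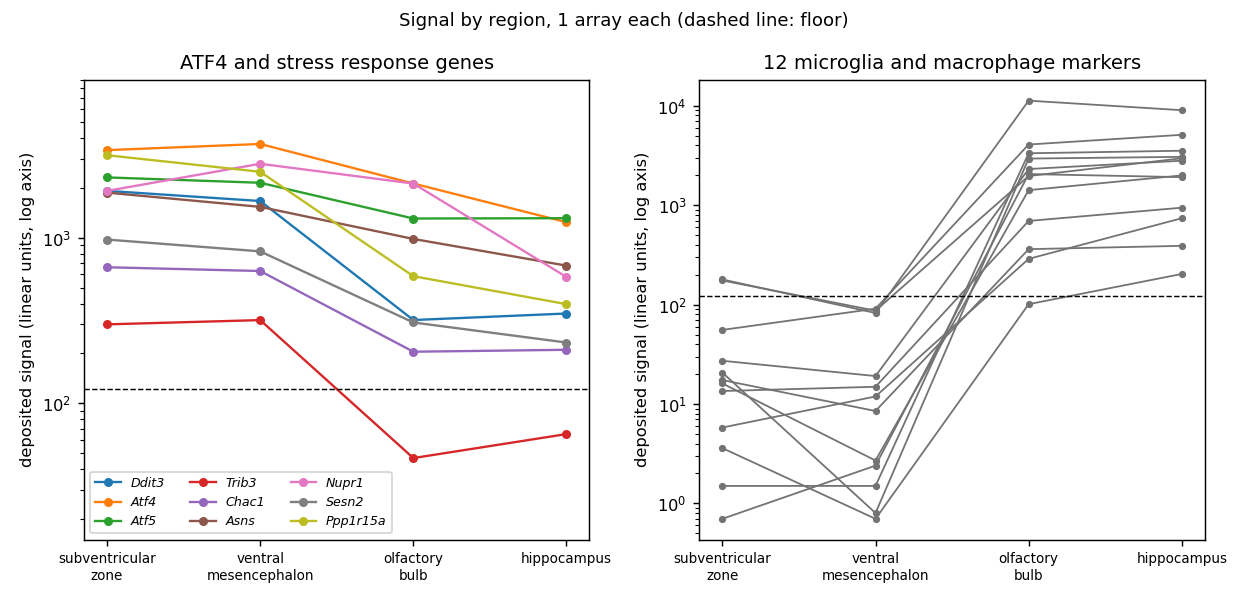
Deposited signal (log axis) of the 9 ATF4 branch genes (left) and of the 12 microglia and macrophage markers (right) by region, 1 array each; lines join the values of 1 gene and the dashed line is the floor of 122.1. Ddit3 goes from 1919.7 and 1666 to 318 and 349, while the summed marker signal goes from 516 and 322.5 to 30772 and 32639.

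Pair by pair, the genes of the ATF4 branch were at least 2-fold higher in the subventricular zone than in the hippocampus in 8 of 9 cases, against 4.95% of all genes. The same count held for the ventral mesencephalon over the hippocampus (8 of 9, against 6.77%). Over the olfactory bulb it was 5 of 9 for the subventricular zone (against 9.0%) and 5 of 9 for the ventral mesencephalon (against 6.46%). None of the 9 differed 2-fold between the subventricular zone and the ventral mesencephalon (5.45% and 4.97% of all genes in the 2 directions). Nupr1 alone did between the olfactory bulb and the hippocampus (5.23% and 8.69%). The pairs share arrays and are not independent. The median distance from the other 3 cultures' mean (log2) was 0.89, 1.01, -0.89 and -1.26 over the 9 genes, and -0.02, -0.06, -0.02 and 0.01 over all genes. The microglia and macrophage markers were high in the 2 cultures in which the branch was low, and their part in the result was not tested.

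A longer list of 46 further ATF4 and amino acid response genes was divided. Of 39 above the floor, 22 were at least 2-fold apart between the highest and lowest region, beside 31.0% of all genes. The subventricular zone and ventral mesencephalon were the 2 highest for 19, beside 17.0% of all genes. The other 20 followed different orders or had tied values at the floor. Widest apart was Gadd45a, a growth arrest gene, with 2174, 2138, 229.7 and 409.7. Atf3, a stress-induced factor, read 1173, 718, 253 and 282, and Eif4ebp1, a translation repressor, read 2508, 2670, 1083 and 1154. These were the 3 genes of the list with at least 2-fold between the 2 sides in that order.

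Amino acid genes of the list showed other patterns. Wars, the tryptophanyl-tRNA synthetase, read 1603, 691, 355 and 640.1, and Cth, a cysteine-making enzyme, 434, 196, 162 and 213. Both were called higher in the subventricular zone, as was the cationic amino acid transporter Slc7a3 (360.1, 87.7, 52.9 and 38.2); 1.28% of all genes were called so. The cystine transporter Slc7a11 went against the branch and was higher in the olfactory bulb (164, 359, 934 and 121). The lipoprotein receptor Vldlr was higher in the ventral mesencephalon (381, 809, 218 and 245). Psat1, of serine synthesis, was lower in the olfactory bulb (1952, 1067, 533 and 1679). Sesn1 and Ndrg1 were lower in the ventral mesencephalon, at 184 and 925, with the other cultures at 451 to 772 and 2496 to 3803. Over all genes 1.57% were called higher and 0.563% lower in the ventral mesencephalon, and 1.87% higher and 1.55% lower in the olfactory bulb.

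The ER genes did not share the pattern of the ATF4 branch. Of the 15, 6 were at least 2-fold apart between the highest and the lowest region (Pdia6, Dnajb9, Dnajc3, Sdf2l1, Herpud1 and Xbp1), beside 31.0% of all genes, and 3 were so without the subventricular zone array, beside 24.7%. The subventricular zone was the lowest culture for 11 of the 15, as for 19.6% of all genes, and the ventral mesencephalon and olfactory bulb were the 2 highest for 9, an order seen in 16.7% of all genes. The median distances from the other regions were small, -0.29, 0.22, 0.19 and -0.12. The sign in the hippocampus is not settled, since it turned under quantile normalization (0.064).

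Core chaperones were nearly level by their main probe sets. Hspa5 (BiP), the main ER chaperone and sensor of load, read 6324, 7740.1, 6943 and 5816, a distance of 1.33-fold. Its second probe set read 1699, 2803, 2424 and 2689.7 and placed the subventricular zone rather than the hippocampus last. Calr and Canx, the lectin chaperones of glycoproteins, read 5473, 6959, 7057 and 5561 and 3823, 5332, 4574 and 4161. Their partner isomerase Pdia3 read 3719, 4964, 4285 and 3741. By their main probe sets these 4 genes stayed within 1.39-fold, with the ventral mesencephalon and the olfactory bulb the 2 highest for each. Further probe sets spread wider, with the second of Hspa5 at 1.65-fold, both further ones of Calr at 1.68-fold and 1.69-fold, and a dim one of Canx at 1.88-fold (158, 239.6, 297 and 209). Another of Canx went a different way, with the subventricular zone highest (1648, 1433, 1193 and 1371).

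Hsp90b1 (GRP94), the ER paralog of Hsp90, stood apart from this group only in the subventricular zone, with 1561 against 2828, 2704 and 2920.3. Its second probe set ran 968, 1625, 1336 and 1155. Dnajb11, a BiP co-chaperone, read 581, 761, 777 and 713, and Hyou1, the nucleotide exchange factor of BiP, 723, 807, 827 and 695. Sel1l, the adaptor of the degradation ligase, was the flattest of the 33 by main probe sets, with 367, 426, 389 and 396. That distance of 1.16-fold is no wider than the probe set noise. By further probe sets Sel1l spread 1.38-fold (309, 357, 426 and 334) and 1.27-fold (198, 233, 198 and 184).

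Other ER genes split by culture. Pdia6, an isomerase, was low in the subventricular zone (889, 2240, 2119 and 1360.4), 2.52-fold under the ventral mesencephalon. Xbp1, the IRE1-spliced transcription factor, was also low there, at 1176 against 2534, 2759.9 and 2340.3. Both further probe sets that passed the floor everywhere gave 931, 1928, 1926 and 1887, and 198, 341, 603 and 661. These signals do not separate the spliced from the unspliced form. Dnajb9, a co-chaperone that represses IRE1, went the other way and was highest in the subventricular zone, at 3195 against 1782, 1492 and 1485. Dnajb9 rests on a single probe set, and a link between its level and that of Xbp1 was not tested.

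Dnajc3 (p58IPK), an inhibitor of the eIF2 kinases PERK and PKR, read 513, 589, 1020.4 and 1460. Low values were in the subventricular zone and ventral mesencephalon, the 2 cultures with the highest ATF4 branch genes, and the hippocampus was 2.84-fold above the subventricular zone. A further 3 probe sets above the floor had the same low pair (214, 248, 315 and 486; 239, 274, 399 and 458; 455, 507, 858 and 692). Sdf2l1, an ER stress-induced partner of the BiP system, had a like order with 99.9, 151, 349.9 and 349.8, at least 2.87-fold from the floor to the top. It was the only ER gene with over 2-fold between the pair of olfactory bulb and hippocampus and the other pair, against 1.64% of all genes. Pdia4, another isomerase, was highest in the hippocampus (391, 466, 414 and 691).

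Herpud1, an ER membrane component of degradation whose promoter matched both element types, read 803, 1065, 902 and 452. The hippocampus was lowest, 2.35-fold under the ventral mesencephalon, and was lowest by the second probe set too (663, 754, 478 and 324). The probe sets differed on the olfactory bulb, which lay above the subventricular zone by the first and below it by the second. The 6 genes with the ER stress element ranged from 1.29-fold (Calr) to 2.84-fold (Dnajc3) between regions, and were highest in the ventral mesencephalon, the olfactory bulb or the hippocampus. The 5 genes with a CARE (Herpud1, Trib3, Chac1, Asns and Nupr1) were all over 2-fold higher in ventral mesencephalon than hippocampus. So were 4 genes of the ATF4 branch without a match in the window (Ddit3, Atf4, Sesn2 and Ppp1r15a), and 6.77% of all genes. All of the 5 but Herpud1 belong to that branch, where 8 of 9 genes passed this rule. A link between match and level was not tested.

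**Figure D3:**
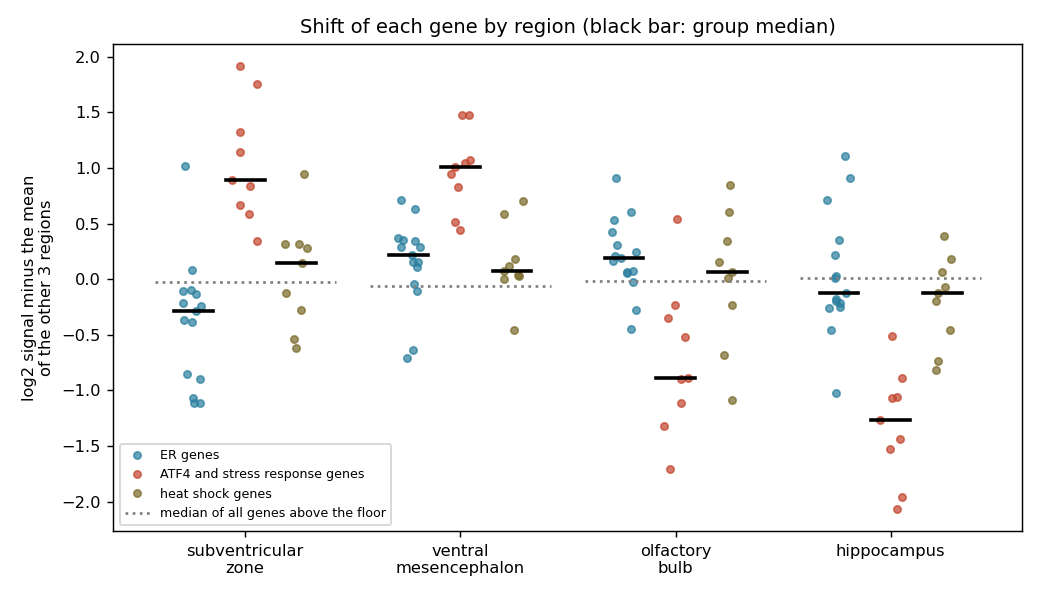
Log2 signal of each of the 33 genes minus its mean in the remaining regions (vertical axis), by region; points are genes coloured by group, black bars are group medians and dotted lines the median of all genes above the floor. The ATF4 branch has medians of 0.89 and 1.01 in the first 2 cultures and -0.89 and -1.26 in the last 2, whereas the ER and heat shock medians lie between -0.29 and 0.22.

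Further ER lists gave the setting for these genes. Over all genes 31.0% were at least 2-fold apart between the highest and the lowest region. Among 11 sensors and membrane factors above the floor, Atf6 (260.1, 223, 239.9 and 244.5) and the PERK gene Eif2ak3 (328, 294, 409 and 350.0) were nearly level, and the IRE1 gene Ern1 was below the floor on all arrays. Eif2ak2, which encodes the interferon-induced eIF2 kinase PKR, was the exception, with 585, 804, 180.2 and 329, and Creb3l1 read 218, 471, 311 and 216; both were over 2-fold apart. Of 24 genes of degradation and translocation, 4 were 2-fold apart, among them Edem1, a mannosidase-like factor, at 261, 583, 558 and 439, and the translocon subunit Ssr1 at 1320, 2685, 3376 and 2432. Of 22 further folding enzymes 6 were 2-fold apart: Txndc5 was called lower in the subventricular zone (788, 1989.6, 2884 and 2286; 1.01% of all genes), Selenom higher in the olfactory bulb (859, 1226, 2654 and 573), and Ero1a, the oxidase that recharges the isomerases, read 470.3, 1580.2, 820.4 and 684.

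The list for collagen folding was the most uniform. All 11 measured of its 13 genes were at least 2-fold apart between regions, beside 31.0% of all genes. For all 11 the ventral mesencephalon and the olfactory bulb were the 2 highest, beside 16.7% of all genes. P4ha2, a prolyl hydroxylase subunit, read 157, 1471, 1732 and 289. Crtap, of the prolyl 3-hydroxylase complex, read 871, 1769, 2577 and 794, and Serpinh1, the collagen chaperone HSP47, which is itself a heat shock gene, 3292, 5572, 7248 and 3771. The median distances were -0.82, 0.67, 0.66 and -0.61. Fibroblast and meningeal markers had their highest summed signals in the same 2 cultures (36189 and 49759.7 against 4977 and 21501). These were the 2 highest cultures for 5 of the 9 markers above the floor. For 2 markers the ventral mesencephalon and hippocampus were highest, and for 2 the olfactory bulb and hippocampus. The part of these markers in the result was not tested.

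Heat shock genes, like the ER genes, were less divided than the ATF4 branch. Of the 9, 3 were at least 2-fold apart (Hspb1, Hspb8 and Dnajb1), beside 31.0% of all genes, and the medians by region were 0.15, 0.07, 0.07 and -0.12. The olfactory bulb median turned to -0.11 with the mean of all probe sets, to -0.23 with the second probe set and to -0.10 without the hippocampus array, so its sign is not settled. The share of this group that differed is near that of all genes.

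By their main probe sets, the Hsp70, Hsp90 and chaperonin genes stayed within 1.68-fold. Hspa8 (Hsc70), the main cytosolic Hsp70, read 10811, 9936, 9681 and 7366, with the hippocampus lowest at 1.47-fold; 1 of its other probe sets put the ventral mesencephalon first (1646, 2069.9, 1632 and 1964). Hsp90aa1, the inducible cytosolic Hsp90, read 6528, 6071, 3882 and 6064, 1.68-fold apart with the olfactory bulb lowest. The mitochondrial chaperonin pair Hspd1 and Hspe1 (Hsp60 and Hsp10), which share a promoter, read 3435, 2964, 2585 and 2735 and 2670.4, 2507, 2489.6 and 2236. Both were highest in the subventricular zone and second in the ventral mesencephalon, within 1.33-fold and 1.19-fold. The second probe set of Hspe1 spanned 1.69-fold, with the ventral mesencephalon highest (858.5, 911, 641 and 539.8).

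Hspb1 and Hspb8, small heat shock proteins, were the widest apart in this group, each in its own way. Hspb1 (Hsp25) was high in the ventral mesencephalon and olfactory bulb, with 1480.3, 2774, 3177 and 1333, and its second probe set gave 803, 1725, 1588 and 666. Hspb8, which works with Bag3 in chaperone-assisted autophagy, was highest in the subventricular zone and lowest in the olfactory bulb, with 5427, 3447, 1889 and 3424, a distance of 2.87-fold. One further probe set followed (1790.2, 1137, 593 and 1331), while the dimmest one put the ventral mesencephalon last (222, 120.4, 241 and 218), a disagreement of over 1 log2 in the olfactory bulb. Cryab, alpha B-crystallin, also a small heat shock protein, stayed within 1.38-fold (2353, 2714, 3246 and 2612), although Gfap differed by 9.95-fold.

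Inducible co-chaperones also went apart. Dnajb1 (Hsp40) read 1015, 1564, 1174 and 741, with 2.11-fold between ventral mesencephalon and hippocampus, and 823, 1311, 625 and 501 by its second probe set. Hsph1 (Hsp110), the exchange factor of Hsp70, read 904, 940.2, 1629.5 and 1462 and so was higher in the olfactory bulb and hippocampus, within 1.80-fold. Among 39 further chaperones above the floor 8 were 2-fold apart, beside 31.0% of all genes. The mitochondrial Hsp70 gene Hspa9 took the order of the ATF4 branch (3269, 3124, 1178 and 1434). The inducible Hspa1b was called lower in the subventricular zone (177, 482, 373 and 409). Hspa2 was higher in the hippocampus (186, 207, 164 and 737; 2.49% of all genes), and Hspa4l and Bag2 were lower in the olfactory bulb (135 and 177, with 274 to 1045 and 387 to 416 elsewhere). Of the heat shock factor genes, Hsf2 and Hsf4 lay below the floor on all arrays and Hsf1 is not analysed here. Hsbp1, a binding protein of the factors, was within 1.35-fold (2625, 2319, 2306 and 3102).

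**Figure D4:**
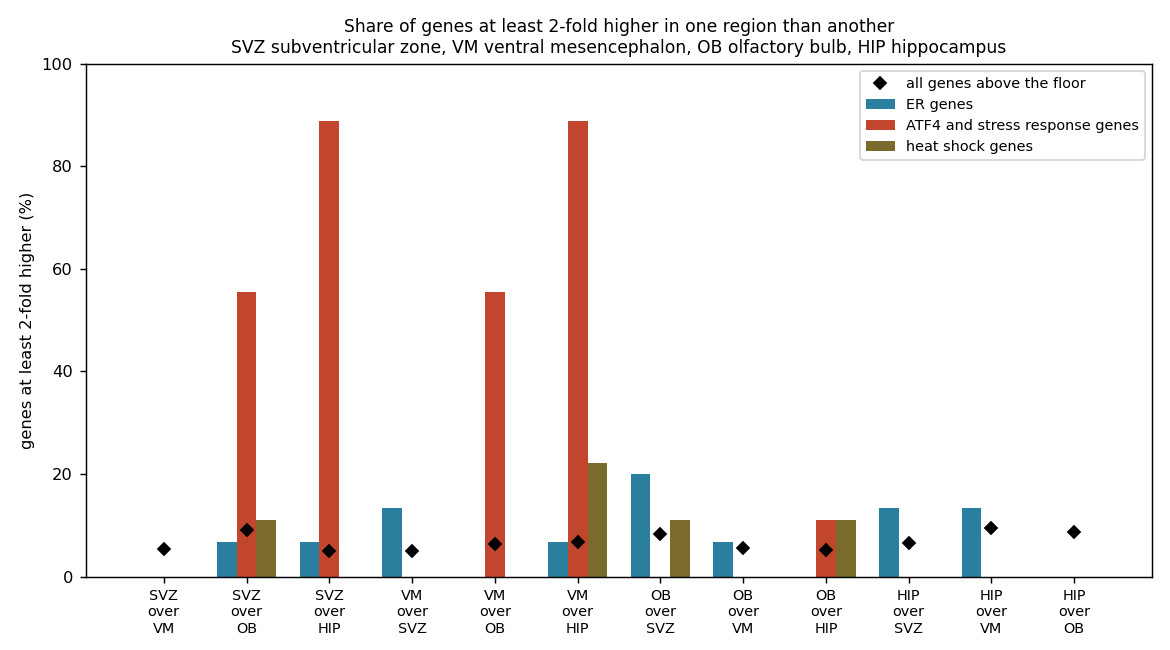
Share of genes (%) at least 2-fold higher in the first-named region than in the second, for all 12 directions of the 6 pairs; bars are the 3 groups, diamonds all 7987 genes above the floor. The bars of the ATF4 branch reach 8 of 9 genes for subventricular zone and ventral mesencephalon over hippocampus, where all genes stand at 4.95% and 6.77%.

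Over all 33 genes, 17 were at least 2-fold apart between any regions (31.0% of all genes), and 11 were without the hippocampus array (24.2%). For the ER group the pairs with most calls were the olfactory bulb over the subventricular zone, with 3 of 15 (Pdia6, Sdf2l1 and Xbp1, against 8.39% of all genes), the ventral mesencephalon over the subventricular zone, with 2 (Pdia6 and Xbp1, against 4.97%), and the hippocampus over the subventricular zone and over the ventral mesencephalon, with 2 each (Dnajc3 and Sdf2l1, against 6.54% and 9.43%). Over the ventral mesencephalon, the olfactory bulb was higher for Sdf2l1 alone (against 5.53%). For the heat shock group the most calls in a pair were 2 of 9. They were Hspb1 and Dnajb1 in the ventral mesencephalon over the hippocampus (against 6.77% of all genes).

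Of 40 further probe sets of the 33 genes, 32 were above the floor on at least 1 array, and 29 of these lay on the same side as the main probe set in the region where the gene was farthest from the rest. This was so for 5 of 5 in the ATF4 branch, 15 of 16 in the ER group and 9 of 11 in the heat shock group. The 3 exceptions were a probe set each of Hyou1, Hspa8 and Hspb8. The remaining 8, of Pdia4, Pdia6, Dnajc3, Hyou1, Sel1l, Atf4, Hspa8 and Cryab, stayed below the floor on every array. Ddit3, Atf5, Chac1 and Ppp1r15a had a single probe set, as did 5 of the other genes, and rest on it alone.

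**Figure D5:**
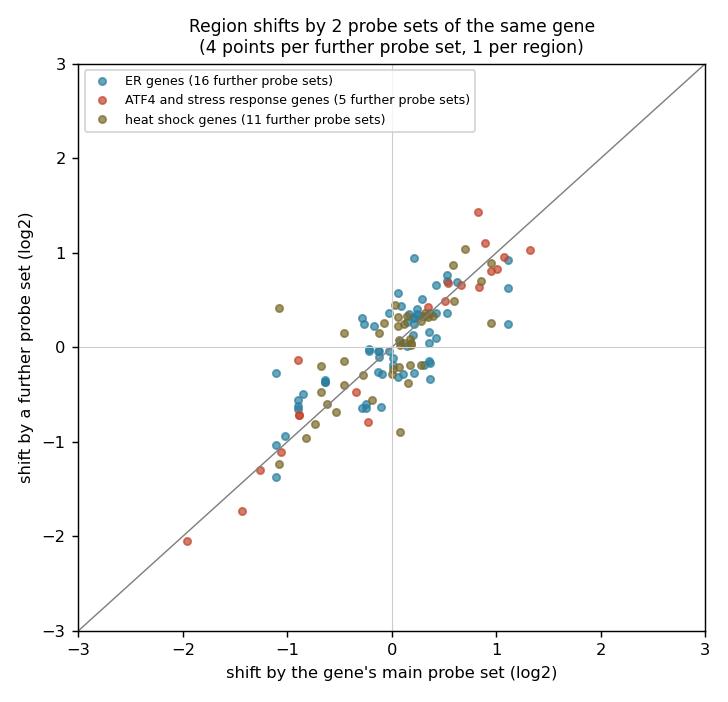
Log2 signal in a region minus its mean elsewhere, by the main probe set of a gene (horizontal) and by a further probe set of the same gene above the floor (vertical), with 4 points per further probe set and the line of equality. The 5 further probe sets of the ATF4 branch follow the line, and the 1 heat shock point far above it at the left is the dimmest probe set of Hspb8 in the olfactory bulb.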

How the data were processed

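One array per region was analysed. Per the submitters' processing notes, GCOS 1.4 produced the values; which of its algorithms and which scaling target were set is not stated there. Each deposited column is an array's signal intensity, not log-transformed, over 22690 probe sets, and no detection calls were used. The 2% trimmed means were 400.1 to 400.2, so the arrays were compared without rescaling; a global scale presumes equal total RNA signal in each culture. Names came from the platform annotation: 20380 probe sets had 1 symbol, 691 several and 1555 none listed, beside 64 control probe sets, and 20351 matched a RefSeq gene by identifier. A gene was represented by its probe set of highest mean log2 signal after the floor of 122.1. A gene was called higher or lower in a region at 2-fold or more beyond each other region. Counts were set beside the same count over the 7987 genes that passed the floor on any array; the number of arrays limits the precision. All measured members were named, with further probe sets that differed by over 1 log2 or stayed under the floor, and from each of 7 pathway lists the called genes and up to 3 others with the largest distances. Atf6, Eif2ak3, Ern1, Serpinh1 and the other probe sets and list genes outside this rule were named after their values were seen. The members and lists were chosen with earlier results of these data known. Alternatives varied the floor, filter, probe set rule, normalization, fold, group summary and arrays used. Calls and motif search were tested on simulated data. Python 3.11.15, pandas 2.3.3 and numpy 2.4.6 were used.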

Additional observations from a re-analysis of the deposited data

How the results depend on the processing

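No paired analysis was possible because each region has 1 array and no test was made. Group medians counted as moved when they changed by more than the probe set noise of 0.16 (log2), and counts when they changed by over 1.5 times. The causes were not tested, apart from the fewer or more genes that a stricter or looser fold calls by construction. A higher floor, at the 70th percentile, gave ATF4 medians of 0.77 in the ventral mesencephalon and -0.54 in the olfactory bulb. The ATF4 genes apart from the bulb were then 3 for the subventricular zone and 3 for the ventral mesencephalon, the latter also being the 3 of all members. With a floor of 32 the ATF4 median in the subventricular zone was 1.14. With the mean of all probe sets, the ATF4 medians in the olfactory bulb and hippocampus were -0.52 and -1.09, the heat shock median in the bulb reversed to -0.11, Hyou1 in the hippocampus reversed to 0.016, and 1 member differed between subventricular zone and ventral mesencephalon. With the second probe set, the values in the bulb were -0.72 (ATF4) and -0.23 (heat shock, reversed), and Hyou1 reversed to 0.22. By that probe set 3 members were called, beside 10.0% of all genes, and 4 differed between bulb and hippocampus. Quantile normalization gave 0.064 for the ER median in the hippocampus (reversed). It gave 2 called members, beside 9.82% of all genes, and 4 apart between bulb and hippocampus. Genes above the floor on all 4 arrays gave an ATF4 median of -0.71 in the bulb. Mean in place of median gave 0.042 for the ER genes in the hippocampus (reversed) and -0.72 for ATF4 in the bulb. Shares of all genes by pair were not computed under these settings.

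At 1.5-fold, 5 heat shock genes were apart between any regions, beside 59.3% of all genes, and 9 members were called, beside 26.0%. Shares of all genes by pair were not computed at 1.5-fold or 3-fold. The members apart were 7 (subventricular zone and ventral mesencephalon), 18 (subventricular zone and bulb), 19 (subventricular zone and hippocampus), 13 (ventral mesencephalon and bulb) and 9 (bulb and hippocampus), and 8 ATF4 genes were apart from the bulb in either of the first 2 cultures. At 3-fold the counts between any regions were 0 (ER), 5 (ATF4), 0 (heat shock) and 5 (all), beside 14.2% of all genes. The members apart were 0, 4 and 5 for the subventricular zone with the ventral mesencephalon, bulb and hippocampus, 3 and 4 for the ventral mesencephalon with the bulb and hippocampus, and 1 for bulb and hippocampus. The ATF4 genes among them were 5 (subventricular zone and hippocampus), 3 (ventral mesencephalon and bulb) and 4 (ventral mesencephalon and hippocampus).

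Leaving out 1 array at a time, the ATF4 medians ranged from 0.61 to 1.296, from 0.59 to 1.38, from -1.34 to -0.51 and from -1.62 to -1.06, and kept their sign. The heat shock median in the bulb ranged from -0.10 to 0.12. Counts between any regions ranged from 5 to 8 (ATF4), 3 to 6 (ER) and 11 to 16 (all), beside 22.9% to 25.6% of all genes. Called members ranged from 8 to 10, beside 14.7% to 16.4% of all genes. The count of ATF4 genes with both of the first 2 cultures above both others, added after the values were seen, was 8, and 7 with the higher floor or with the filter on all 4 arrays. Signals near the floor limit Trib3 and Sdf2l1, and 1 culture a region limits every comparison.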
